A study of Homo sapiens with 12 samples.

Results

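NCI-H1299 spheroid cells were compared as xenograft tumours and as a culture, with 3 arrays of xenografts grown from spheroid cells and 3 arrays of spheroid cells in culture. These 6 samples, chosen by their titles, make up 2 of the 4 groups of the series, which holds 12 samples in all. NCI-H1299 is an established cell line from a human non-small cell lung cancer, and its spheroid cells are the cells that float off when a monolayer is moved to stem-cell medium, collected and kept in flasks that hinder attachment. The remaining 6 samples are xenografts and cultures of parental cells, which were grown in serum-containing medium, with 3 samples each. The spheroid xenografts and the spheroid cultures share the stem-cell medium as the origin of their cells, and the labels name no drug, transgene or mutation that sets a group apart. The titles call the samples biological replicates. No source used here names the host animal, the site of a tumour or the time it grew, or says whether the 3 tumours had separate hosts. The p-values therefore measure only how these samples varied, which may be technical in part.

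Spheroid culture selects or induces cells that survive without a surface to hold, and the series design treats such cells as cancer stem cells. As a xenograft the same cells form a solid mass that is fed by host vessels, lies among host connective tissue and takes its nutrients, metals and lipids from host fluids in place of the stem-cell medium. The comparison asks which genes differ between these settings. In bulk RNA, fewer cells of a type and less RNA per cell cannot be told apart, and a tumour sample can hold RNA of host cells that the probes for human genes read where the sequences are alike.

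Expression was read on Affymetrix HG-U133 Plus 2.0 arrays as log2 values, and 1 probe set stood for each of 19775 genes. The medians of the 6 arrays ran from 5.88 to 6.03. Their interquartile ranges were 2.99, 2.98 and 3.23 in the spheroid xenografts, against 2.86, 2.92 and 3.07 in the spheroid cultures. The 3' minus 5' signal of actin, a sign of RNA integrity that grows as RNA is degraded, was 0.232, 0.308 and 0.642 in the xenografts, against 0.773, 0.178 and 0.208 in the cultures. Xenograft replicate 3 and culture replicate 1 stood apart from the other 4 arrays on this measure. Among markers of the line, the mesenchymal filament gene VIM read 14.50 ± 0.03 in xenografts and 14.41 ± 0.08 in cultures, and the keratin gene KRT18 read 11.34 ± 0.24 in xenografts and 11.66 ± 0.10 in cultures (SD, n = 3 arrays per group). The epithelial adhesion genes CDH1, with 4.52 ± 0.15 in xenografts and 4.59 ± 0.10 in cultures, and EPCAM, with 4.12 ± 0.15 in xenografts and 4.23 ± 0.15 in cultures, had group means below the lower quartile of all probe sets, which ran from 4.66 to 4.80 over the 6 arrays.

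Spheroid xenografts carried more RNA than spheroid cultures for the embryonic globin HBE1, the Notch target HEY1, the metastasis-associated calcium-binding protein S100A4 and the cell cycle kinase CDK6. They carried less for the collagenase MMP1, the decoy receptor IL13RA2, the G protein regulator RGS2, the cyclin CCND2, and a run of metallothioneins. By limma on the 6 arrays, with Benjamini-Hochberg adjustment over all genes, 117 of 19775 genes were called at an adjusted p under 0.05 (0.592%). Of these, 72 were higher in xenografts (0.364%) and 45 lower (0.228%), and 49 (0.248% of all genes) and 34 (0.172%) of them differed at least 2-fold. In all 117 the 3 xenograft values lay on the same side of the 3 culture values, and so did those of 18.7% of all genes. At an unadjusted p under 0.05 there were 2502 genes (12.7%). For a single gene the smallest two-sided p of an exact permutation test is 0.1 at this size, so the calls rest on the model.

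The count depended on the fit. Arrays of the same replicate number deviated together. With the number as a block 591 genes were called (2.99%), with all 117 among them. Of the 591, 416 were higher (2.1%) and 175 lower (0.885%). For genes given below as called with the block, the SE is that of the fit without it. Only their adjusted p is that of the block. Median centring of each array left 39 genes, 19 higher and 20 lower. With the parental arrays in the fit as well, whose spread was wider, only HBE1, TM4SF18, SPAG1 and the non-coding gene LINC02591 were called (0.0202%). The count was 40 without xenograft replicate 1, 4 without xenograft replicate 2, 8 without xenograft replicate 3, 227 without culture replicate 1, 3 without culture replicate 2 and 188 without culture replicate 3. HBE1 and HEY1 were the 2 genes called in all 6 of these fits. Without both arrays of high actin 3' minus 5' signal, an alternative chosen after seeing the data, 284 genes were called, 122 higher and 162 lower, with 89 of the 117 among them.

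**Figure D1:**
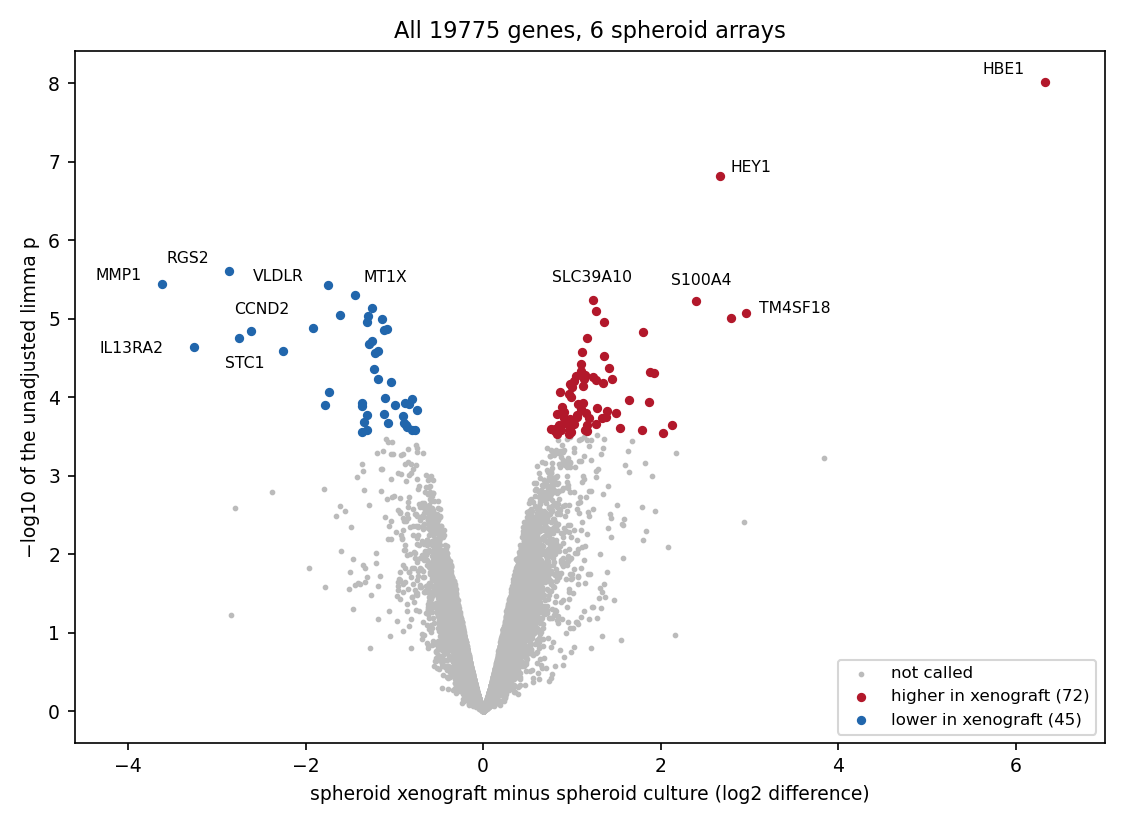
Each point is 1 of 19775 genes, with the spheroid xenograft minus spheroid culture difference in log2 units on the horizontal axis and the −log10 of the unadjusted limma p on the vertical axis (3 arrays per group). HBE1 stands alone at 6.33, and the 45 genes called lower reach -3.62 at MMP1.

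HBE1, which encodes the epsilon chain of embryonic haemoglobin, was the gene that differed most. Its probe set read 11.61, 11.22 and 11.80 in the spheroid xenografts, against 5.96, 4.96 and 4.72 in the spheroid cultures. Every tumour lay far above every culture, at a distance many times the spread within either group. The difference was 6.33 (SE 0.30, adjusted p = 0.000191), or 80.5-fold. A second HBE1 probe set, which was dimmer, gave -0.18 (SE 0.12), so the probe sets of this gene disagree. Of the other 9 erythroid genes measured 0 were called by limma, with or without the replicate block, and 1 had an unadjusted p under 0.05. The adult beta chain HBB differed by 0.52 (SE 0.19, adjusted p = 0.318) by its brightest probe set, which cannot be told from near-identical globins. Its other probe sets gave from -0.12 (SE 0.16) to 0.11 (SE 0.18). The haem synthesis enzyme ALAS2 differed by 0.01 (SE 0.13, adjusted p = 0.986). The erythroid regulators GATA1 (-0.07 (SE 0.13)) and KLF1 (-0.17 (SE 0.14)) were not called either. In parental cells the HBE1 difference was 6.59 (SE 0.38 in the fit of 12 arrays). The change did not differ detectably between the kinds of cell (interaction -0.26 (SE 0.54, adjusted p = 1)). The summed log2 level of the 10 erythroid genes was 64.9 to 67.4 in the xenografts, against 58.7 to 62.5 in the cultures. HBE1 was then left out because it was called. The sum of the other 9 was 53.1 to 55.9 in the xenografts, against 54.0 to 56.6 in the cultures. That sum leaves out the gene called higher, so it does not describe the list as a whole. Whether host red cells add to the HBE1 signal was not tested.

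**Figure D2:**
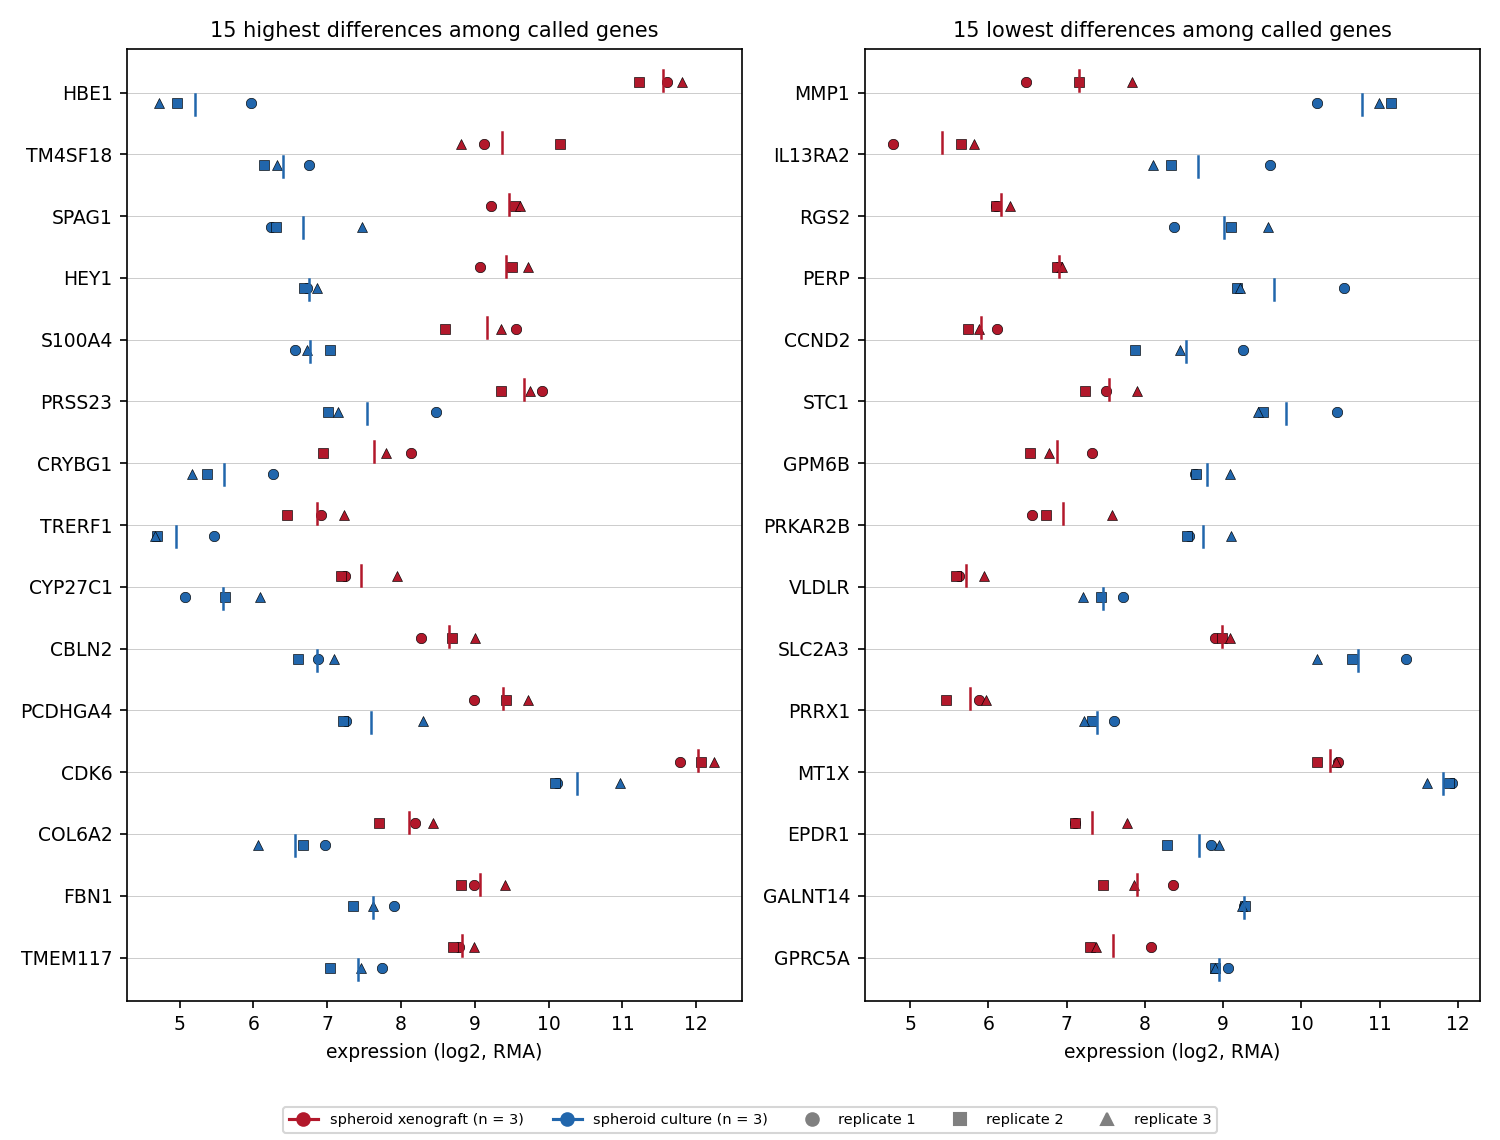
Expression in log2 RMA units of the 15 genes with the highest and the 15 with the lowest difference among those called, with 1 marker per array, shapes for the replicate number and a bar at the mean of each group (n = 3). The rule that chose these 30 genes required the spheroid xenograft values to lie on 1 side of the spheroid culture values. Those of 18.7% of all genes do so.

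TM4SF18, a membrane protein of the L6 family, read 9.13, 10.15 and 8.82 in the spheroid xenografts, against 6.75, 6.14 and 6.31 in the spheroid cultures. SPAG1, an assembly factor for the dynein arms of cilia, read 9.22, 9.54 and 9.61 in the spheroid xenografts, against 6.23, 6.30 and 7.47 in the spheroid cultures. In both genes every tumour lay above every culture, by 2.96 (SE 0.32, adjusted p = 0.0128) and 2.79 (SE 0.31, adjusted p = 0.0128). S100A4, a calcium-binding protein tied to cell motility, read 9.56, 8.59 and 9.36 in the spheroid xenografts, against 6.56, 7.04 and 6.72 in the spheroid cultures, a difference of 2.40 (SE 0.25, adjusted p = 0.0128). The secreted serine protease PRSS23 rose by 2.13 (SE 0.35), the beta-gamma crystallin domain protein CRYBG1 by 2.03 (SE 0.35), the steroidogenic transcription regulator TRERF1 by 1.92 (SE 0.26) and the retinoid desaturase CYP27C1 by 1.86 (SE 0.28). For TRERF1 the other 2 probe sets gave -0.08 (SE 0.15) and 0.33 (SE 0.16), and the mean over its probe sets was not called (0.72, adjusted p = 0.108). For these 4 the adjusted p by the brightest probe set lay between 0.0254 and 0.0491. CBLN2, a synaptic organiser, rose by 1.80 (SE 0.21, adjusted p = 0.0134). The protocadherin PCDHGA4 rose by 1.79 (SE 0.30, adjusted p = 0.0475), but genes of its cluster share exons, so that the member read is uncertain. TMEM117, a membrane protein, rose by 1.42 (SE 0.19, adjusted p = 0.0245). Among these genes TM4SF18 was called in 5 of the 6 fits that left out 1 array, S100A4 in 4, SPAG1 and CBLN2 in 3, TRERF1, CYP27C1 and TMEM117 in 2, and PRSS23, CRYBG1 and PCDHGA4 in 1.

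Several metallothioneins were lower in the tumours and a zinc importer was higher. Metallothioneins are small cysteine-rich proteins that bind zinc and copper, and their genes, clustered on human chromosome 16, are switched on by the zinc-sensing factor MTF1 when free metal rises. Zinc importers of the SLC39A family bring the metal into the cytosol and exporters of the SLC30A family remove it. Of 15 measured genes for metallothioneins, MTF1 and zinc transporters 4 fell and 1 rose (33.3%, against 0.592% of all genes), and the median difference of the list was -0.071, against -0.047 over all genes. With the replicate block 6 were called lower (against 0.885% of all genes) and 2 higher (against 2.1%). The probe sets of metallothioneins read near-identical copies of each other, so which of these genes changed is uncertain.

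MT1X read 10.46, 10.20 and 10.44 in the spheroid xenografts, against 11.92, 11.89 and 11.61 in the spheroid cultures. MT2A, the most widely expressed form, read 11.22, 10.97 and 11.39 in the spheroid xenografts, against 12.50, 12.62 and 12.30 in the spheroid cultures. MT1H read 9.57, 9.42 and 9.67 in the spheroid xenografts, against 10.95, 10.94 and 10.65 in the spheroid cultures. In each of the 3 all tumours lay below all cultures, by more than the spread within either group. MT1X fell by 1.44 (SE 0.15, limma adjusted p = 0.0128), MT1H by 1.30 (SE 0.14, adjusted p = 0.0128) and MT2A by 1.28 (SE 0.16, adjusted p = 0.016), which is 2.71-fold, 2.46-fold and 2.43-fold lower. MT1F differed by -1.12 (SE 0.13, adjusted p = 0.0134). MT1G (-0.90 (SE 0.17)) and MT1E (-0.68 (SE 0.17)) passed with the replicate block alone, at adjusted p = 0.036 and 0.0281. MT1M and the brain form MT3 were dim in both groups and differed by -0.07 (SE 0.14) and -0.06 (SE 0.14). MT1X and MT1H were called in 3 of the 6 fits without 1 array and MT2A in 2.

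SLC39A10, a plasma membrane zinc importer, moved the other way. It read 10.68, 10.55 and 10.50 in the spheroid xenografts, against 9.42, 9.20 and 9.37 in the spheroid cultures, with all tumours above all cultures by more than the spread within either group, and a difference of 1.24 (SE 0.13, adjusted p = 0.0128). The metal importer SLC39A8 read 10.62, 10.65 and 10.70 in xenografts, against 8.38, 8.90 and 9.79 in cultures. Its tumour values were tight and its culture values spread, and the difference of 1.63 (SE 0.30, adjusted p = 0.0653) passed with the replicate block alone (adjusted p = 0.0195). SLC39A6 (0.48 (SE 0.22)), SLC39A14 (0.40 (SE 0.15)), the exporter SLC30A1 (-0.25 (SE 0.34)) and MTF1 itself (0.25 (SE 0.14)) were not called. TXNRD1, a selenium-containing reductase that keeps thioredoxin reduced, read 11.39, 11.19 and 11.28 in xenografts, against 12.49, 12.33 and 12.48 in cultures. It differed by -1.14 (SE 0.13, adjusted p = 0.0128) and was the 1 of 23 NRF2 and glutathione genes called (4.35%, against 0.592% of all genes), while a second, dim probe set gave -0.02 (SE 0.11) and the mean over both was not called (-0.58, adjusted p = 0.0649). The membrane-bound glutathione transferase MGST1 was called lower with the replicate block, with 8.05, 6.64 and 5.42 in xenografts, against 9.14, 8.95 and 9.15 in cultures and a difference of -2.37 (SE 0.53) (adjusted p = 0.0362). Its tumours were spread widely. SLC39A10 and TXNRD1 were called in 3 of the 6 fits without 1 array.

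**Figure D3:**
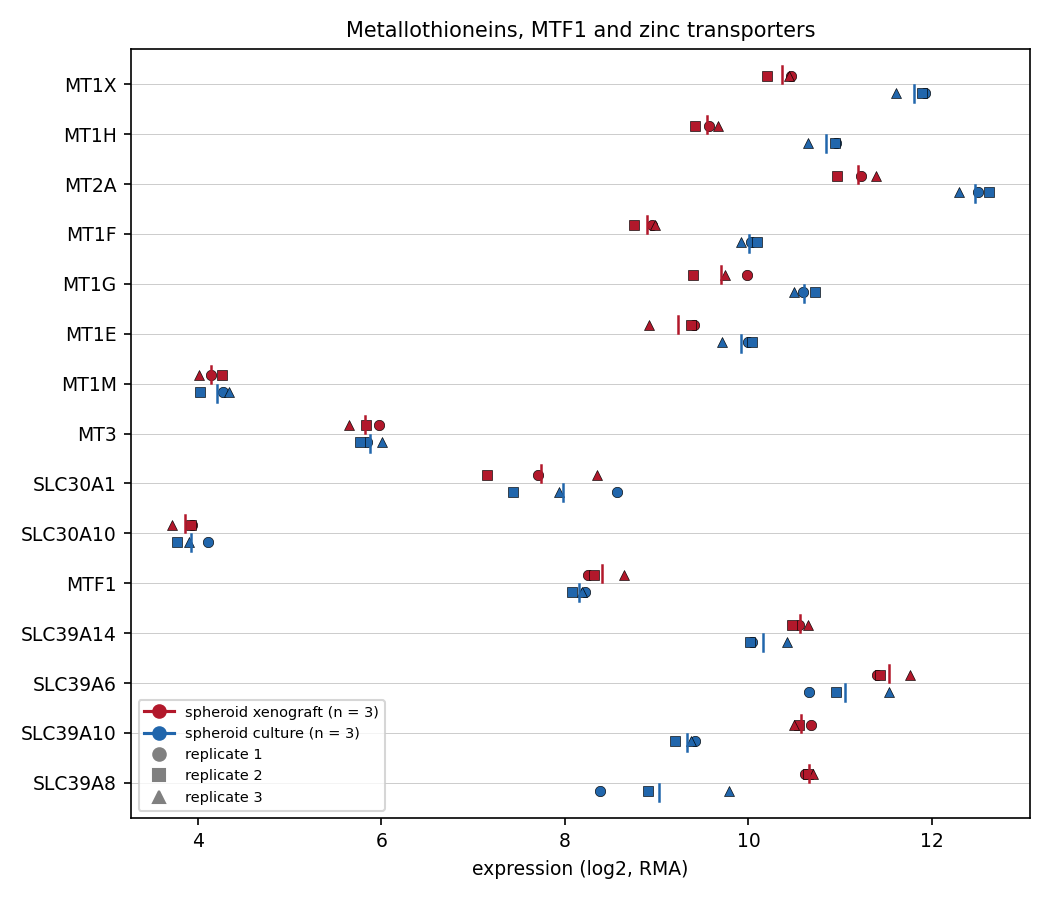
Expression in log2 RMA units of 15 metallothionein and zinc genes, 1 marker per array with a bar at each group mean (n = 3), spheroid xenograft above spheroid culture in each row. MT1X, MT1H, MT2A and MT1F sit left of their cultures, and SLC39A10 sits right of its own.

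The start regions of the 3 metallothioneins above are shown because they carry the metal response element, the motif that MTF1 binds. Each run spans 250 bases before and 50 after the start in RefSeq on GRCh38.p14, plus strand, with capitals at the cores TGCACNC and TGCGCNC on either strand. MT2A lies at chr16:56608334-56608633, MT1X at chr16:56682220-56682519 and MT1H at chr16:56669564-56669863.
MT2A: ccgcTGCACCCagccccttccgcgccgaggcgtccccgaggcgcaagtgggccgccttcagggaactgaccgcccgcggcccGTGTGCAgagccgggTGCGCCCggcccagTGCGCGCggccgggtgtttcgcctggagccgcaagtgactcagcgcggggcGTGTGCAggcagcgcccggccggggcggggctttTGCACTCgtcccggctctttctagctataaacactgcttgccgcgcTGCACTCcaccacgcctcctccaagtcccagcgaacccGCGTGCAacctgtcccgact
MT1X: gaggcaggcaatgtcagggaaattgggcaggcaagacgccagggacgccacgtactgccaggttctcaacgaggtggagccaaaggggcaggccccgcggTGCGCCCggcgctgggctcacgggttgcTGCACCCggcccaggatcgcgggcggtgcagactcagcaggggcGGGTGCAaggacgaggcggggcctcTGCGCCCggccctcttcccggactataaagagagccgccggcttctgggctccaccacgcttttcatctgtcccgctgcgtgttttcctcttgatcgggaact
MT1H: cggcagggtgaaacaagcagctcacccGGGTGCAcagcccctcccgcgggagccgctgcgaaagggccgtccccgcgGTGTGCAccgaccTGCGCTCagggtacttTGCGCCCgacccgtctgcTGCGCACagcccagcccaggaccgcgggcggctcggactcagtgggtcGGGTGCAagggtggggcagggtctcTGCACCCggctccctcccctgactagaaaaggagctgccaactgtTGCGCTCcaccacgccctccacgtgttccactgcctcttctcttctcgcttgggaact
The MT2A and MT1H windows each held 8 cores, 5 on the plus strand and 3 on the other, and the MT1X window held 4, 3 and 1. No core overlapped a core of the other strand. Of 35116 RefSeq windows of this length 29.6% held at least 1 core, 0.601% at least 4 and 0.0484% at least 7. Cores were not confined to genes that were called lower. The windows of SLC39A10, which rose, held 0 and 1, and those of TXNRD1, which fell, held 1 and 0. The windows of MT4 and SLC30A1 held 3 and 2, and these genes were not called. A match is a run of letters, and MTF1 binding was not measured.

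MMP1 had the lowest difference of the called genes, and the related MMP10 was lower too. MMP1, the interstitial collagenase that cleaves fibrillar collagen, read 6.48, 7.15 and 7.84 in the spheroid xenografts, against 10.20, 11.15 and 10.99 in the spheroid cultures. No tumour came near the lowest culture. MMP1 fell by 3.62 (SE 0.35, adjusted p = 0.0128), or 12.3-fold. The stromelysin MMP10, which activates other metalloproteinases, read 5.05, 4.73 and 4.89 in xenografts, against 5.79, 6.28 and 6.15 in cultures, near the dim end of the array in the tumours, and differed by -1.18 (SE 0.16, adjusted p = 0.0261). They were the 2 of 25 matrix proteases and inhibitors called, both lower (8.0%, against 0.592% of all genes called). The inhibitor TIMP1 (-0.88 (SE 0.25)) was called lower and the protease ADAMTS6 (1.22 (SE 0.24)) higher with the replicate block alone, at adjusted p = 0.0165 and 0.0255. MMP1 was called in 4 of the 6 fits without 1 array and MMP10 in 2.

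IL13RA2, a decoy receptor that captures interleukin 13, read 4.78, 5.65 and 5.82 in the spheroid xenografts, against 9.59, 8.33 and 8.10 in the spheroid cultures. It fell by 3.26 (SE 0.40, adjusted p = 0.0166). RGS2, which shortens signalling by G protein alpha subunits, read 6.10, 6.10 and 6.27 in the spheroid xenografts, against 8.37, 9.11 and 9.57 in the spheroid cultures, with close tumour values, all below the cultures, and a difference of -2.86 (SE 0.27, adjusted p = 0.0128). PERP, a desmosome protein and p53 target, read 6.89, 6.88 and 6.94 in the spheroid xenografts, against 10.54, 9.18 and 9.22 in the spheroid cultures and differed by -2.74 (SE 0.32, adjusted p = 0.0145). Its second bright probe set gave -2.97 (SE 0.47), while the 3 dim ones gave -0.25 to -0.006. PRKAR2B, a regulatory subunit of protein kinase A, fell by 1.78 (SE 0.27), the neural membrane protein GPM6B by 1.92 (SE 0.22) and the ependymin-related protein EPDR1 by 1.37 (SE 0.23). The mucin-type glycosyltransferase GALNT14 and the retinoic acid induced receptor GPRC5A each fell by 1.37 (SE 0.21). Adjusted p lay between 0.0134 and 0.0485 for these 5. IL13RA2, RGS2, GPM6B, PRKAR2B, GALNT14 and GPRC5A were called in 3 of the 6 fits without 1 array, PERP in 2 and EPDR1 in 0.

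Of 29 genes of the hypoxia response 2 fell and 0 rose (6.9%, against 0.592% of all genes called), with a list median of -0.019. SLC2A3, the high-affinity glucose transporter GLUT3, read 8.90, 8.99 and 9.09 in the spheroid xenografts, against 11.33, 10.65 and 10.20 in the spheroid cultures. The tumours lay close together and all below the cultures, and the difference was -1.74 (SE 0.25, adjusted p = 0.032). VLDLR, a receptor for triglyceride-rich lipoproteins, read 5.63, 5.58 and 5.94 in the spheroid xenografts, against 7.73, 7.44 and 7.21 in the spheroid cultures, a difference of -1.74 (SE 0.17, adjusted p = 0.0128). STC1, a secreted glycoprotein that is not on the list, read 7.51, 7.24 and 7.90 in the spheroid xenografts, against 10.45, 9.50 and 9.44 in the spheroid cultures, and fell by 2.25 (SE 0.28, adjusted p = 0.0174). Among the members not called, the vascular growth factor VEGFA differed by 0.05 (SE 0.36), the vasodilator ADM by -0.02 (SE 0.42), the oxygen-sensing prolyl hydroxylase EGLN3 by -0.01 (SE 0.18) and NDRG1 by -0.13 (SE 0.19). ANKRD37 (1.05 (SE 0.51)) was called higher with the replicate block (adjusted p = 0.0455). Among 18 glycolysis genes 0 were called by limma and 4 had an unadjusted p under 0.05 (22.2%, against 12.7% of all genes). With the block the pyruvate kinase PKM was called higher (0.77, SE 0.17 without the block and 0.13 with it, adjusted p = 0.0309 with it). VLDLR was called in 4 of the 6 fits without 1 array, SLC2A3 and STC1 in 2.

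A sterol carrier was lower as well. STARD4, which carries cholesterol between membranes in the cell, read 9.09, 9.17 and 9.01 in the spheroid xenografts, against 10.32, 10.50 and 10.20 in the spheroid cultures, a tight separation with a difference of -1.25 (SE 0.13, adjusted p = 0.0128). It was the 1 gene called of 17 for cholesterol synthesis and uptake (5.88%, against 0.592% of all genes), with a list median of -0.18. The replicate block added 3 synthesis enzymes as lower, HMGCS1 (-1.19 (SE 0.22), adjusted p = 0.0104), MSMO1 (-1.07 (SE 0.19), 0.0106) and IDI1 (-0.75 (SE 0.14), 0.0333), and the lanosterol synthase LSS as higher (0.79 (SE 0.20), 0.0447). ACSS2, which makes acetyl-CoA from acetate, fell by 0.89 (SE 0.15, limma adjusted p = 0.046). It was the 1 of 13 fatty acid synthesis genes called (7.69%, against 0.592% of all genes). STARD4 was called in 3 of the 6 fits without 1 array and ACSS2 in 1.

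HEY1 had the second lowest p after HBE1. The gene encodes a transcriptional repressor that is induced when a Notch receptor is cut and its intracellular part joins RBPJ in the nucleus. HEY1 read 9.07, 9.50 and 9.72 in the spheroid xenografts, against 6.72, 6.68 and 6.87 in the spheroid cultures. The cultures lay close together, and all tumours stood above them by more than the spread within either group. The difference was 2.67 (SE 0.18, adjusted p = 0.00151), or 6.36-fold, and a second probe set gave 2.03 (SE 0.18). It was the 1 of 18 Notch genes called (5.56%, against 0.592% of all genes), with a list median of 0.16. The ligand JAG1 (0.81 (SE 0.37)), the target HES4 (0.78 (SE 0.34)) and the coactivator MAML2 (1.33 (SE 0.25)) were called higher with the replicate block, at adjusted p = 0.021, 0.0204 and 0.00899. Receptors NOTCH1 (0.24 (SE 0.12)), NOTCH2 (0.32 (SE 0.15)) and NOTCH3 (0.13 (SE 0.27)) and the target HES1 (0.12 (SE 0.19)) were not called. HEY1 lost its call with all 12 arrays in the fit (adjusted p = 0.145).

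The interferon-stimulated genes that were called were all higher in the tumours. Such genes are switched on by type I interferon or by viral-type RNA in the cytosol. Of 28 measured 3 rose and 0 fell (10.7%, against 0.364% of all genes called higher), and the median of the list was 0.16, against -0.047 for all genes. IFIH1, the cytosolic RNA sensor MDA5, read 8.75, 8.62 and 8.40 in the spheroid xenografts, against 7.42, 7.40 and 7.64 in the spheroid cultures. ISG15, a ubiquitin-like modifier, read 11.15, 10.75 and 11.03 in the spheroid xenografts, against 9.90, 9.68 and 10.16 in the spheroid cultures. Their values did not overlap between groups, and the differences were 1.10 (SE 0.14, adjusted p = 0.0226) and 1.06 (SE 0.17, adjusted p = 0.0415). OAS3, which makes the second messenger that activates RNase L, rose by 0.89 (SE 0.14, adjusted p = 0.0386). Its second probe set gave 0.12 (SE 0.21), and the mean over both was not called (0.50, adjusted p = 0.218). For IFIH1, with 3 probe sets, that mean was 0.74 (adjusted p = 0.0597). With the replicate block 10 members were called, all higher (35.7%, against 2.1% of all genes called higher). The 7 added were IFIT1 (1.43 (SE 0.35)), the GTPase MX1 (1.06 (SE 0.30)), the deISGylase USP18 (0.84 (SE 0.15)), the RNA sensor RIGI (0.76 (SE 0.16)), the factor IRF7 (0.70 (SE 0.19)), IFI6 (0.68 (SE 0.17)) and PARP14 (0.64 (SE 0.13)), at adjusted p from 0.00547 to 0.0478. IFIT1 read 8.04, 6.89 and 7.22 in xenografts, against 6.64, 5.44 and 5.78 in cultures, with replicate 1 the highest of each group and all tumours above all cultures. Myeloid and lymphocyte markers had 0 of 17 and 0 of 16 genes called by limma, with or without the block, and 0 with an unadjusted p under 0.05. Their summed log2 levels were 89.2 to 93.6 and 90.7 to 94.9 in the xenografts, against 91.0 to 93.5 and 94.8 to 96.9 in the cultures. The probes for human genes read host RNA only where the sequences are alike, and whether host immune cells were present was not tested. IFIH1 and ISG15 were called in 2 of the 6 fits without 1 array and OAS3 in 1.

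**Figure D4:**
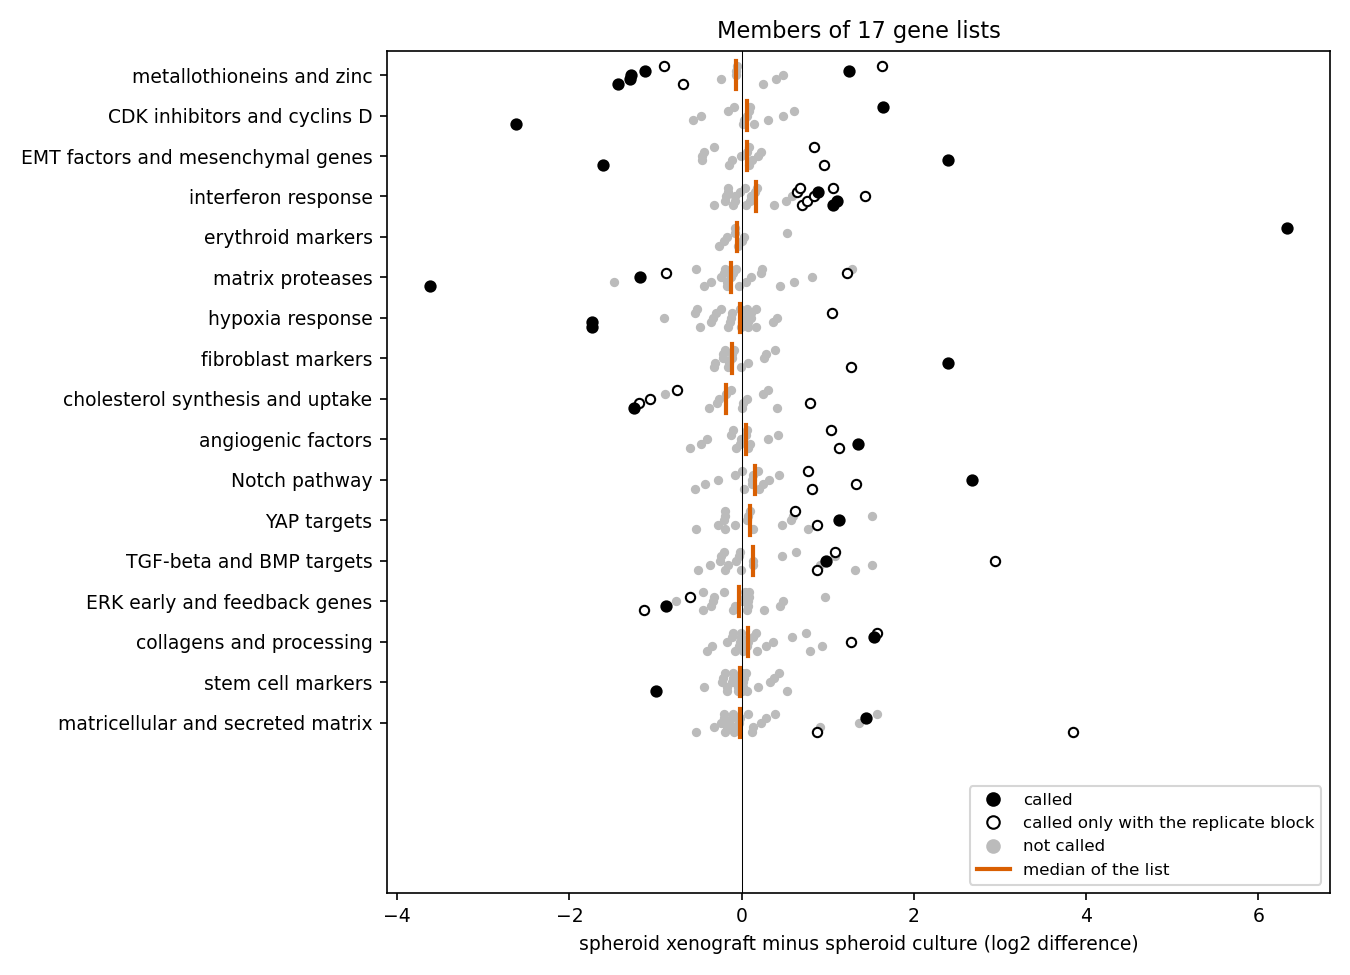
Spheroid xenograft minus spheroid culture differences in log2 units of the members of 17 gene lists, ordered by the share called, with filled points for called genes, open points for genes called with the replicate block alone and a bar at the list median. The called members of the interferon list lie right of 0 and the metallothioneins left of it, while all 17 medians lie close to 0.

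Single matrix and growth factor genes were higher in the tumours. COL6A2, a chain of the microfibrillar collagen VI, read 8.19, 7.70 and 8.43 in the spheroid xenografts, against 6.97, 6.67 and 6.06 in the spheroid cultures, a difference of 1.54 (SE 0.26, adjusted p = 0.0475). Its second probe set gave 0.33 (SE 0.16), which was not called. FBN1, the main protein of elastic microfibrils, read 8.99, 8.81 and 9.41 in the spheroid xenografts, against 7.91, 7.34 and 7.63 in the spheroid cultures, a difference of 1.45 (SE 0.20, adjusted p = 0.0261). Of 25 collagen genes 1 rose (4.0%, against 0.364% of all genes), with a list median of 0.072. An unadjusted p under 0.05 was found for 6 of them (24%, against 12.7% of all genes). Of 26 matricellular genes 1 rose (3.85%, against 0.364%), with a list median of -0.023. With the replicate block the collagens COL6A1 (1.57 (SE 0.41)) and COL3A1 (1.27 (SE 0.26)), the adhesive glycoprotein EDIL3 (3.84 (SE 0.73)) and the growth factor modulator CCN2 (0.88 (SE 0.17)) were called higher, at adjusted p = 0.00949, 0.0453, 0.00949 and 0.0262. The other probe sets of COL3A1, which were dimmer, gave from -0.04 (SE 0.11) to 0.45 (SE 0.17). EDIL3 read 10.33, 8.05 and 10.34 in xenografts, against 7.23, 4.92 and 5.03 in cultures, the largest of these and the most uneven within groups.

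Fibroblast markers had 1 of 17 genes called by limma, S100A4 (5.88%, against 0.592% of all genes). With the replicate block COL3A1 was called as well by its brightest probe set (11.8%, against 2.99% of all genes). The list median was -0.11, and 6 of the 17 differences were positive. The summed log2 level was 106.8 to 108.9 in the xenografts, against 103.6 to 107.0 in the cultures. S100A4 and COL3A1 were then removed because they were called. For the other 15 genes the sum was 90.4 to 92.9 in the xenografts, against 91.6 to 94.5 in the cultures. That sum leaves out the genes called higher, so it does not describe the list as a whole. LUM and POSTN were below the lower quartile of their array on all 6 arrays. The probes for human genes read host RNA only where the sequences are alike, and the part of host fibroblasts in these collagen values was not tested. Endothelial, skeletal muscle, adipocyte and keratinocyte markers had 0 of 17, 0 of 14, 0 of 13 and 0 of 13 genes called by limma, with or without the block, and 1, 0, 1 and 0 with an unadjusted p under 0.05. The endothelial sum was 100.2 to 103.1 in the xenografts, against 101.1 to 103.6 in the cultures, and KDR and TIE1 lay below the lower quartile on all 6 arrays. The adipocyte and keratinocyte sums were 74.6 to 76.6 and 72.1 to 73.0 in the xenografts, against 77.6 to 80.0 and 74.4 to 74.9 in the cultures.

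The receptor TGFBR2, which starts TGF-beta signalling, rose by 0.98 (SE 0.17, adjusted p = 0.0475). It was the 1 of 23 genes of TGF-beta and BMP signalling called (4.35%, against 0.592% of all genes). With the replicate block the inhibitory SMAD7 (1.08 (SE 0.19)) and the targets ID2 (2.94 (SE 0.76)) and ID3 (0.87 (SE 0.21)) were called higher, at adjusted p = 0.0249, 0.0364 and 0.0143. ID2 read 9.83, 10.27 and 10.31 in xenografts, against 5.30, 7.22 and 9.08 in cultures, with close tumour values and a wide spread among the cultures. TEAD1, the DNA-binding partner of YAP, read 10.73, 10.78 and 11.23 in the spheroid xenografts, against 9.75, 9.63 and 9.98 in the spheroid cultures. It rose by 1.13 (SE 0.17, adjusted p = 0.0379), the 1 of 19 YAP genes called (5.26%, against 0.592% of all genes). Its other 2 probe sets gave 0.23 (SE 0.22) and 0.38 (SE 0.24), and the mean over all 3 was not called (0.58, adjusted p = 0.192). Of this list CCN2 and the membrane repair protein MYOF (0.62 (SE 0.15), adjusted p = 0.0486) were called higher with the replicate block. Among angiogenic factors 1 of 17 rose (5.88%, against 0.364% of all genes). VEGFC, the ligand that drives growth of lymphatic vessels, read 8.32, 8.54 and 8.82 in the spheroid xenografts, against 7.55, 7.08 and 7.01 in the spheroid cultures, a difference of 1.34 (SE 0.19, adjusted p = 0.0267). PDGFC, a ligand of the PDGF receptor alpha, rose by 1.15 (SE 0.16, adjusted p = 0.0261). It was the 1 of 29 growth factor receptors and ligands called (3.45%, against 0.592% of all genes). NFKBIA, the inhibitor that holds NF-kappaB in the cytosol and is itself induced by it, rose by 0.91 (SE 0.15, adjusted p = 0.0426), but its other probe set, which was dim, gave -0.043 (SE 0.13). PDGFC was called in 3 of the 6 fits without 1 array, TEAD1, VEGFC, NFKBIA, COL6A2 and FBN1 in 2 and TGFBR2 in 1.

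PRRX1, a homeobox factor of mesenchymal cells, read 5.88, 5.46 and 5.97 in the spheroid xenografts, against 7.61, 7.33 and 7.22 in the spheroid cultures. All tumours lay below all cultures, by -1.62 (SE 0.18, adjusted p = 0.0128). With S100A4, which moved the other way, it made 2 of 17 mesenchymal genes called (11.8%, against 0.592% of all genes). TWIST1 (0.96 (SE 0.30)) and TCF4 (0.84 (SE 0.20)), factors of the epithelial to mesenchymal transition, were called higher with the replicate block (adjusted p = 0.0195 and 0.022). PRRX1 was called in 3 of the 6 fits without 1 array.

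Among cell cycle genes 1 was called in each direction, both in the list of D cyclins, their kinases and inhibitors. CDK6, a kinase that D cyclins activate to pass the G1 restriction point, read 11.78, 12.07 and 12.24 in the spheroid xenografts, against 10.11, 10.08 and 10.97 in the spheroid cultures. Its difference was 1.64 (SE 0.25, adjusted p = 0.0366), and 6 of its 7 probe sets gave 0.81 to 1.71. CCND2, the D cyclin that binds CDK4 and CDK6, read 6.11, 5.74 and 5.88 in the spheroid xenografts, against 9.26, 7.88 and 8.45 in the spheroid cultures. Its difference was -2.62 (SE 0.30, adjusted p = 0.0134), and all 4 probe sets were lower, by -2.62 to -0.54. These were the 2 of 15 genes for D cyclins, their kinases and inhibitors called (13.3%, against 0.592% of all genes). Of 29 S phase genes and of 30 G2 and M phase genes 0 were called by limma, with or without the block. The S phase genes had a median of -0.058, and 2 had an unadjusted p under 0.05 (6.9%, against 12.7% of all genes). The G2 and M phase genes had a median of -0.17, against -0.047 over all genes, 8 of the 30 had a positive difference, and 8 had an unadjusted p under 0.05 (26.7%). The proliferation antigen MKI67 read 9.33 ± 0.11 in xenografts and 8.99 ± 0.30 in cultures, a difference of 0.33 (SE 0.17, adjusted p = 0.467). All 4 MKI67 probe sets were higher, by 0.33 to 0.60, with a lowest limma adjusted p of 0.0624 over all probe sets. CCND2 was called in 4 of the 6 fits without 1 array and CDK6 in 2.

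The immediate early factor EGR1, which ERK signalling induces, read 12.54, 12.34 and 12.23 in the spheroid xenografts, against 13.33, 13.18 and 13.24 in the spheroid cultures. It fell by 0.88 (SE 0.13, adjusted p = 0.0379), the 1 of 24 ERK early and feedback genes called (4.17%, against 0.592% of all genes). FOS (-1.13 (SE 0.21)) and the feedback inhibitor SPRY2 (-0.60 (SE 0.18)) were called lower with the replicate block, at adjusted p = 0.0269 and 0.0392. In the neuroendocrine list the secreted VGF precursor fell by 1.08 (SE 0.12, adjusted p = 0.0134) and the synaptic vesicle calcium sensor SYT1 rose by 0.76 (SE 0.13, adjusted p = 0.0475). VGF was called in 3 of the 6 fits without 1 array, EGR1 in 2 and SYT1 in 1.

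Of the stem cell markers only ALDH1A3 was called. Of 26 measured 0 rose and 1 fell (3.85%, against 0.592% of all genes called), and the median was -0.017. ALDH1A3, an aldehyde dehydrogenase that makes retinoic acid and contributes to the ALDEFLUOR signal, read 5.22, 5.43 and 5.05 in the spheroid xenografts, against 6.24, 6.05 and 6.38 in the spheroid cultures. Its tumours lay below its cultures, by -0.99 (SE 0.15, adjusted p = 0.0379). A second ALDH1A3 probe set gave -0.015. CD44, which binds hyaluronan and serves as a sorting marker of stem-like cells, read 9.99, 9.42 and 9.96 in the spheroid xenografts, against 10.08, 8.88 and 8.84 in the spheroid cultures. Its groups overlapped, and the difference of 0.52 (SE 0.32, adjusted p = 0.545) was not called. Its 13 probe sets gave differences from -0.50 to 0.92. The surface glycoprotein PROM1, with 4.25 ± 0.12 in xenografts and 4.24 ± 0.18 in cultures, and ALDH1A1, with 4.16 ± 0.12 in xenografts and 4.33 ± 0.11 in cultures, had group means below the lower quartile of all probe sets, where a change may not have been detectable. The pluripotency factors SOX2 and NANOG differed by -0.23 (SE 0.16, adjusted p = 0.586) and 0.06 (SE 0.18, adjusted p = 0.921). ALDH1A3 was called in 1 of the 6 fits without 1 array.

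Over all 48 gene lists, 908 of 993 listed genes were measured and 32 of them were called, where 0.592% of all genes were called. The lists were chosen with earlier results of these data known, so these counts are not a test. In 25 lists no member was called, which does not show that their genes were unchanged. Those with 0 included the respiratory chain, fatty acid oxidation, the unfolded protein response, heat shock proteins, apoptosis regulators, lysosome and autophagy genes, integrins and laminins, Wnt genes and cytosolic ribosomal proteins. The member with the lowest p was the integrin subunit ITGAV in its list, with 0.78 (SE 0.16, adjusted p = 0.0796). It was the Wnt effector TCF7L2, with 1.03 (SE 0.19, adjusted p = 0.0635), the transferrin receptor TFRC in the iron list, with 1.03 (SE 0.23, adjusted p = 0.111), and the myosin light chain MYL9 in the actin and SRF list, with 1.14 (SE 0.20, adjusted p = 0.053). These 4 were called higher with the replicate block, at adjusted p from 0.0111 to 0.0292. Over all lists 84 of the 908 measured genes were called with the replicate block, 55 higher and 29 lower, and 52 of them were called with it alone. Of all genes 2.99% were called with the block.

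Among receptors and ligands that were called with the block alone, the epidermal growth factor receptor EGFR read 10.46, 10.56 and 10.78 in xenografts, against 8.91, 9.77 and 9.79 in cultures. Every tumour lay above every culture, by 1.11 (SE 0.24) (adjusted p = 0.0205 with the block), and the related receptor ERBB3 differed by 1.14 (SE 0.24) (0.0419). The guidance ligand SEMA3A (1.03 (SE 0.20)) and the ephrin EFNB2 (1.13 (SE 0.50)) of the angiogenic list were called higher, at adjusted p = 0.0478 and 0.0484. In the NF-kappaB list TNFAIP3, a ubiquitin-editing inhibitor of the pathway, was called higher (0.68 (SE 0.23), adjusted p = 0.0469), and the cytokine LIF lower (-1.06 (SE 0.28), 0.0215). The desmosomal cadherin DSG2 read 5.32, 5.15 and 5.27 in xenografts, against 8.06, 6.18 and 6.46 in cultures, dim in all tumours, and was called lower (-1.66 (SE 0.41), 0.0426). So were the collagen-binding integrin subunit ITGA2 (-1.34 (SE 0.29), 0.0259) and PHGDH, the first enzyme of serine synthesis (-0.98 (SE 0.27), 0.0104). The unfolded protein response factor XBP1 (0.58 (SE 0.17)), the secreted Wnt inhibitor DKK1 (0.66 (SE 0.25)), the tropomyosin TPM2 (0.60 (SE 0.22)), the calcium buffer CALB1 (1.35 (SE 0.25)) and the iron importer SLC11A2 (0.64 (SE 0.21)) were called higher, at adjusted p from 0.0183 to 0.0484. Without the block limma gave these genes adjusted p from 0.0635 (CALB1) to 0.401 (EFNB2).

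Whether parental cells change in the same way as spheroid cells when grown as tumours was tested as an interaction over the 12 arrays, the spheroid difference minus the parental one. The parental cultures were uneven in their control signals. Their actin 3' minus 5' signal was 0.779, 0.381 and 0.249. An 18S ribosomal RNA control probe set read 6.96, 10.50 and 13.34 in them, against 13.24, 13.20 and 12.96 in the spheroid cultures. Of 19775 genes 27 were called (0.137%), 13 with a positive interaction (0.0657%) and 14 with a negative one (0.0708%), and 3 of them were among the 117 above, all lower in spheroid xenografts than in spheroid cultures, with a positive difference in parental cells. PRRX1 had 5.77 ± 0.27 in xenografts and 7.39 ± 0.20 in cultures in spheroid cells, against 8.91 ± 0.44 in parental xenografts and 7.56 ± 0.54 in parental cultures (SD, n = 3), an interaction of -2.97 (SE 0.40, adjusted p = 0.019). SLC2A3 had 8.99 ± 0.10 in xenografts and 10.73 ± 0.57 in cultures in spheroid cells, against 10.85 ± 0.57 in parental xenografts and 9.47 ± 0.61 in parental cultures, an interaction of -3.12 (SE 0.50, adjusted p = 0.0416). STARD4 gave -1.25 in spheroid cells and 0.52 in parental cells (SE 0.20 for each in the fit of 12 arrays), an interaction of -1.77 (SE 0.29, adjusted p = 0.0416). These 3 were not called with the replicate block (adjusted p = 0.0521, 0.0554 and 0.0681), under which 12 genes passed. The lowest p of the interaction was that of SPARC, a collagen-binding matricellular protein, which read 4.48, 4.80 and 4.85 in xenografts, against 4.40, 4.56 and 4.51 in cultures, dim in all 6, and 8.96 ± 0.06 in parental xenografts and 4.81 ± 0.16 in parental cultures. Its interaction was -3.93 (SE 0.20, adjusted p = 4.37e-06). PRRX1 was called in 8 of the 15 other fits of the interaction, SLC2A3 in 4, STARD4 in 3 and SPARC in all 15.

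**Figure D5:**
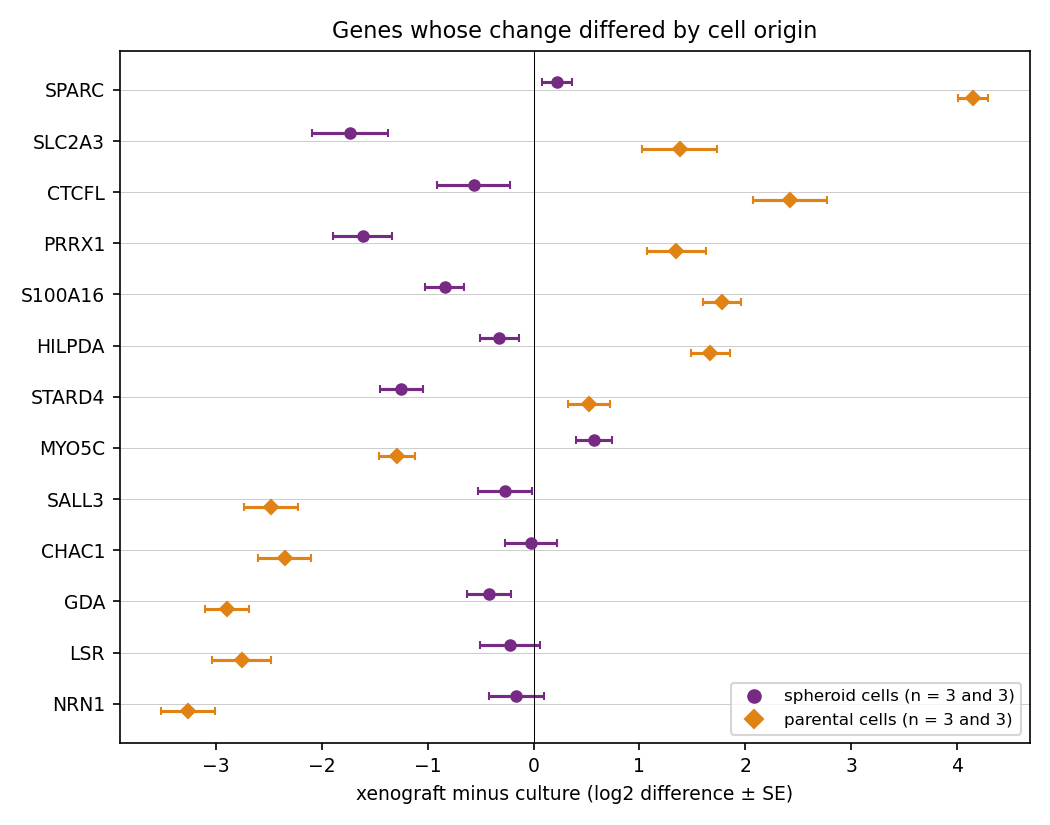
Xenograft minus culture difference in log2 units ± SE from the fit of 12 arrays, in spheroid cells (circles, above) and parental cells (diamonds, below), for 13 genes whose interaction was called. SPARC differs by 0.22 in spheroid cells and 4.15 in parental cells, and NRN1 by -0.16 and -3.26.

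For several other genes called in the comparison the interaction was not called. MMP1 differed by -3.62 in spheroid cells and 1.06 in parental cells, whose samples spread widely (SE 1.15 for each in the fit of 12 arrays). Its interaction was -4.68 (SE 1.62, adjusted p = 0.445). By the same fit STC1 differed by -2.25 and 1.70 (SE 0.48 for each), with an interaction of -3.95 (SE 0.67, adjusted p = 0.0517). RGS2 differed by -2.86 and 0.34 (SE 0.52 for each), with an interaction of -3.20 (SE 0.73, adjusted p = 0.148). For MT1X the differences were -1.44 and -0.65 (SE 0.27 for each), with an interaction of -0.79 (SE 0.39, adjusted p = 0.737). S100A4 and SLC39A10 were higher in parental xenografts as well, by 3.09 (SE 0.41) and 1.68 (SE 0.28). Those intervals are wide, and a miss of the threshold does not show that the kinds of cell respond alike.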

How the data were processed

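Each of the 12 samples was hybridised to an Affymetrix HG-U133 Plus 2.0 array with 54675 probe sets. The authors deposited log2 expression values, and the submitters' processing notes name RMA and affy, an R package, as the tools. Tool versions and the set of arrays normalised at once are not stated in the sources used here. Array number limits the precision (median SE of a difference 0.156), and depth does not apply.

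Genes were named from the 41091 probe sets with 1 symbol in the platform annotation (1801 had several and 11721 none, beside 62 control probe sets). Symbols were updated by gene number for 41037 probe sets in RefSeq of GRCh38.p14. For each of 19775 genes the probe set brightest on average over all 12 arrays was used, unfiltered. With R 4.3.3 and limma 3.58.1, group means were fitted to the 6 spheroid arrays with 4 residual degrees of freedom, eBayes moderated the spread, and genes were called at a two-sided Benjamini-Hochberg adjusted p under 0.05. The interaction was fitted to 12 arrays. The fits were tested on simulated data.

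The titles give the groups the same replicate numbers. Deviations from the group means of same-numbered spheroid arrays correlated over genes at 0.34, 0.33 and 0.43 for numbers 1, 2 and 3, so that the numbers were taken to pair the samples, and the fit with the replicate number as a block (2 residual degrees of freedom) is given for list members whose call it changes. The SE printed beside a difference is that of the fit without the block, also where the adjusted p is that of the block. What the numbers share is not stated in the labels.

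The groups, the 48 gene lists and the naming rule were chosen with earlier results of these data known. The rule names the 15 highest and 15 lowest called genes whose groups do not overlap, up to 4 called members of each list, or its member with the lowest p where none is called, 11 standing markers, the 2 highest members of each cell type list and the 6 highest and 6 lowest genes of the interaction. Symbols of unnamed genes (LOC, FAM, KIAA, orf) and those ending in -AS1 or -IT1 are left out. List members called with the replicate block alone, uncalled members of the zinc, Notch, hypoxia and erythroid lists, MT1F, LINC02591 and genes under other observations were named after their values were seen. Alternatives were other normalisations, probe set choices, filters, moderation, arrays in the fit and leaving out each array.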

Additional observations from a re-analysis of the deposited data

Results flagged for a closer look

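For 13 named genes the xenograft minus culture difference was not the same in spheroid and in parental cells by the test of the interaction itself (limma over 12 arrays, adjusted p under 0.05). In 7 the interaction was negative. SPARC gave -3.93 (differences of 0.22 in spheroid cells and 4.15 in parental cells), SLC2A3 -3.12 (-1.74 and 1.38), the germline insulator protein CTCFL -2.99 (-0.56 and 2.42), PRRX1 -2.97 (-1.62 and 1.35), the calcium-binding protein S100A16 -2.62 (-0.84 and 1.78), the lipid droplet protein HILPDA -1.99 (-0.32 and 1.67) and STARD4 -1.77 (-1.25 and 0.52).

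In the other 6 it was positive. The neuritin gene NRN1 gave 3.10 (-0.16 in spheroid cells and -3.26 in parental cells), the lipolysis-stimulated receptor LSR 2.53 (-0.22 and -2.76), the guanine deaminase GDA 2.47 (-0.42 and -2.90), the glutathione-degrading enzyme CHAC1 2.33 (-0.02 and -2.35), the developmental regulator SALL3 2.21 (-0.27 and -2.48) and the myosin MYO5C 1.86 (0.57 and -1.29). With the replicate block SPARC, S100A16, NRN1, GDA, LSR, SALL3, MYO5C and HILPDA were called, and PRRX1, SLC2A3, STARD4, CHAC1 and CTCFL were not (adjusted p from 0.0521 to 0.0817). SPARC and S100A16 were called in all 15 other fits of the interaction.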

How the results depend on the processing

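The count of 117 genes for spheroid xenograft minus spheroid culture was 4 with all 12 arrays in the fit, 591 with the replicate block, 39 after median centring, 181 after cyclic loess, 70 when a gene's probe sets were averaged and 75 when _x_at and _s_at probe sets were dropped, where 17098 genes were tested. Leaving out 1 array gave 3 to 227. The alternatives chosen after seeing the data gave 284 without the 2 arrays of largest actin 3' minus 5' difference and 374 with the replicate block and quantile normalisation together. The counts that stayed within 1.5 times were 167 after quantile normalisation (94 higher and 73 lower), 118 by the highest mean over the spheroid arrays, 140 without dim genes and 175 with an intensity trend and robust moderation. After median centring the split was 19 higher and 20 lower, against 72 and 45, and after cyclic loess 103 and 78. The share of calls that were higher therefore moved with the scaling. The interaction count of 27 was 12 with the replicate block, 133 after quantile normalisation, 8 after median centring and 2 to 186 with 1 array left out. Without parental culture replicate 1 it was 97, and without replicate 2 it was 186. Without parental xenograft replicate 2 it was 6, and without spheroid culture replicate 3 it was 2.

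Of the 49 named genes called, 48 lost the call under at least 1 alternative, HBE1 being the exception. NFKBIA was the 1 named called gene whose sign turned, to -0.043 (adjusted p = 0.913) when _x_at and _s_at probe sets were dropped, since its remaining probe set is another and dimmer one. Without those probe sets PERP differed by -0.13 (adjusted p = 0.704) and COL6A2 by 0.33 (adjusted p = 0.482). When a gene's probe sets were averaged, genes that lost the call included SYT1 (0.54, adjusted p = 0.237), ALDH1A3 (-0.50, adjusted p = 0.191), NFKBIA (0.43, adjusted p = 0.131) and TGFBR2 (0.75, adjusted p = 0.059). So did COL6A2 (0.93, adjusted p = 0.102), SLC2A3 (-1.64, adjusted p = 0.0567) and PERP (-1.22, adjusted p = 0.0562). HBE1, CCND2 and PRSS23 kept theirs at 3.08, -1.34 and 1.38. Where not said otherwise, the cause was not tested. The signal limits what can be read of genes near the lower quartile, such as PROM1 and ALDH1A1, and no array measures a zero. All 117 called genes were called with the replicate block too.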

Other observations

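Some called genes outside the lists share a known role; they were picked after their values were seen, so no test is attached to the grouping. CD55 and CD59, membrane proteins that protect cells from complement, were both lower in the tumours. CD55 read 7.01, 7.30 and 7.02 in xenografts, against 8.29, 8.22 and 8.56 in cultures, a difference of -1.25 (SE 0.15, limma adjusted p = 0.015). CD59 read 11.76, 11.26 and 11.37 in xenografts, against 12.80, 12.58 and 12.35 in cultures, a difference of -1.11 (SE 0.18, adjusted p = 0.0415). In both genes every tumour lay below every culture. The sodium bicarbonate transporter SLC4A7 differed by -1.21 (SE 0.15, adjusted p = 0.0174), and the anion exchanger SLC4A2 by 0.85 (SE 0.14, adjusted p = 0.046). The glycosyltransferases B3GNT5, which starts lacto-series glycolipids, and ST6GAL1, which adds sialic acid, differed by -1.34 (SE 0.22) and -0.81 (SE 0.14). CAV1, the coat protein of caveolae, differed by 0.81 (SE 0.14), and the germ cell relative of MYB, MYBL1, by 1.39 (SE 0.22). The adjusted p of these 4 lay between 0.0404 and 0.0475.

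By the median, genes called higher in the tumours were longer than all genes, though no test was run and brightness was not matched. Their median span in the genome was 86.1 kb (n = 71 genes with a span), against 31.3 kb for those called lower (n = 45) and 24.7 kb for all genes (n = 19731). With the replicate block the medians were 71.1 kb for higher and 27.6 kb for lower genes. Among them were the osmotic stress factor NFAT5, with a difference of 1.02 (SE 0.14), the cohesin subunit STAG1, with 1.03 (SE 0.17), and the DNA demethylase TET2, with 0.99 (SE 0.17).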
